A study of Mus musculus with 1152 samples.

Results

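Fndc1-type lymphatic endothelial cells (LECs) from aged mice, taken from the nasopharyngeal lymphatic plexus (NPLP), were the cells that scored highest for a set of 5 genes, Fndc1, Tppp3, Fbln7, Reln and Ccl21a. About 120 of the roughly 660 cells in the deposited matrix belonged to this class, or 17.8% (exact 95% binomial interval, 15% to 21%); exact counts are given with the processing. All cells came from a single group: C57BL/6 mice described as aged, nasopharyngeal mucosa, sorted as positive for CD31 and podoplanin, and sequenced 1 cell per well with Smart-seq3, which reads full-length transcripts. Cells of several mice had been pooled and the labels name no animals. The cells were therefore treated as 1 sample without replicates. No test between groups of cells was possible, intervals cover counting error only, and no adult mice were compared.

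Lymphatic capillaries are the blind-ended vessels through which fluid, solutes and immune cells enter the lymphatic system. Their endothelium carries the hyaluronan receptor LYVE1, anchors to the surrounding matrix, and secretes the chemokine CCL21, which guides dendritic cells that carry the receptor CCR7. Collecting vessels downstream have lower LYVE1, a fuller basement membrane and valves. The NPLP is a network of lymphatic vessels in the nasopharyngeal mucosa and one of the routes by which cerebrospinal fluid drains.

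The members were selected on measured values. Each gene was z-scored over all cells, a class score was the mean z of its genes, and a cell was placed in the class with its highest score. The other classes were Ptx3+ capillary-like cells (21.2% of cells, scored on Ptx3, Stab2, Stab1, Itih5, Mrc1 and Gpx3), Ptn-Anxa3-Stc1 cells (17.4%, scored on these genes with Rbp7 and Cd34), precollecting-like cells (22.9%), upstream-valve-like cells (11.1%) and downstream-valve-like cells (9.60%). The levels of these 31 genes therefore describe the choice of cells and support nothing further. All values below are the natural log of 1 plus reads per 10000 (ln values), or their linear form, reads per 10000. A ratio is that of the mean linear levels, with 0.1 reads per 10000 added to both.

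The class was cut from a per-cell score, so its members span a range of scores. The Fndc1-type score of members had a median of 0.94 and ran from -0.04 to 2.59, against a median of -0.22 and a maximum of 1.24 in other cells. Members led the next class by a median of 0.70, 31 of them by under 0.25 and 12 by under 0.1, and in 18 other cells the score fell short of the leading class by no more than 0.1. The member nearest to the limit scored 0.779 against 0.776 for the upstream-valve-like set, and the nearest cell outside scored 1.235 against 1.236 for the Ptn-Anxa3-Stc1 set. The next class was Ptn-Anxa3-Stc1 in 38 members, Ptx3+ capillary-like in 28, downstream-valve-like in 24, upstream-valve-like in 14 and precollecting-like in 13.

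**Figure D1:**
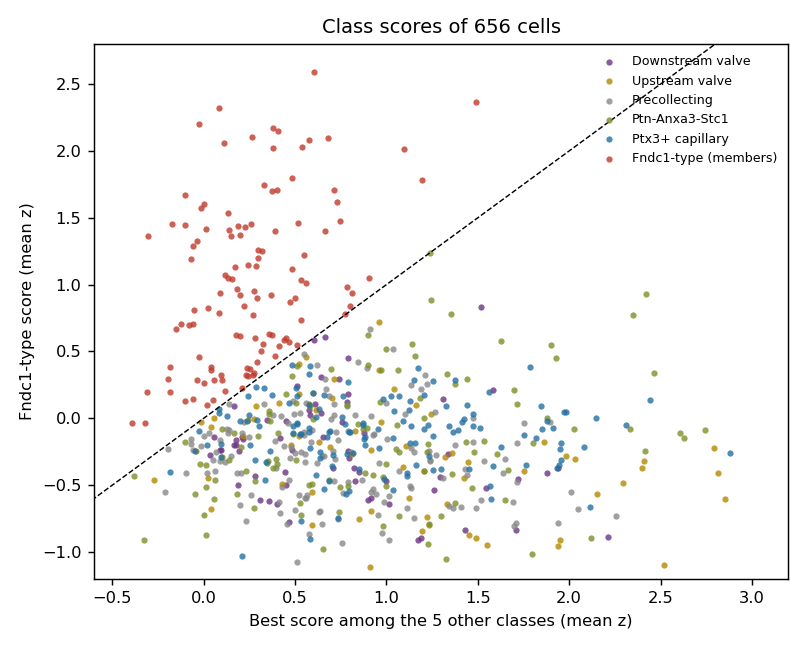
Each point is 1 cell, with its Fndc1-type score (mean z of 5 genes) on the vertical axis and the best score among the 5 other classes on the horizontal axis, coloured by class. The members lie above the dashed line of equal scores, and 12 of them lie within 0.1 of it.

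Members had a median of 184079 reads (9250 to 8126156) and 3948 detected genes, and other cells a median of 137202 reads and 3932 genes. Reads were counted without collapsing PCR copies. To compare shares of cells with a gene, cells were thinned to 20000 reads, which left out 14 members and 74 other cells with fewer reads.

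Fndc1 encodes a fibronectin type III domain protein. Its median ln value was 1.91 in members (0 to 3.51) and 0 in other cells (0 to 2.98), and the groups overlapped. After thinning, 88.3% of members had Fndc1 reads (80.5% to 93.8%), 44.3% of Ptn-Anxa3-Stc1 cells and 18.9% of Ptx3+ capillary-like cells. Without thinning, 30.7% of the cells with Fndc1 reads were members, so Fndc1 alone did not mark the class. Reads of both Fndc1 and Ptn, which encodes the growth factor pleiotrophin, were also counted without thinning. They were found in 51.3% of members and 48.2% of Ptn-Anxa3-Stc1 cells, but in 7.19% of Ptx3+ capillary-like cells.

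Tppp3, which encodes a tubulin-binding protein, had a median ln value of 2.63 in members (0 to 5.01), 0.08 in other cells (0 to 4.36) and 0.41 in Ptn-Anxa3-Stc1 cells. Fbln7, which encodes the matrix and adhesion protein fibulin 7, was the sparsest of the 5 genes. It was at 0 in 64 members, detected in 45.3% of them (36.1% to 54.8%), and detected in 6.86% of other cells (4.88% to 9.34%). It had reads in 4 Ptx3+ capillary-like cells.

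Reln and Ccl21a were broad. Reln encodes reelin, a large secreted glycoprotein known from neuronal migration that lymphatic endothelium also makes. It was detected in 100% of members and 99.3% of other cells, with median ln values of 3.10 (0.31 to 4.70) and 2.26 (0 to 4.25). Ccl21a had median ln values of 1.66 (0 to 3.22) and 0.96 (0 to 2.93), and was detected after thinning in 90.3% of members and 72.9% of other cells. Among members, 50 had reads of all 5 genes, 57 of 4, 9 of 3 and 1 of 2, and 22 other cells had reads of all 5.

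Ccl21a has near-identical copies on mouse chromosome 4, so which copy its reads came from is uncertain. Across the coding sequence in the GENCODE M21 transcripts (GRCm38), Ccl21a (chr4:42772860-42773993, minus strand) and Ccl21b (chr4:42255767-42256432, plus strand) were 99.5% identical. The annotated copies Gm10591, Gm13304 and Gm21541 had the same 2 differences from Ccl21a, T84A and C194T, with Ccl21a's base first and positions counted from the first coding base. The 41 coding bases around each are shown 5′ to 3′ because only reads across these positions tell the copies apart in the coding sequence, with the differing base in capitals.
Ccl21a around T84A: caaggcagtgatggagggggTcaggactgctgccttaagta
Ccl21b around T84A: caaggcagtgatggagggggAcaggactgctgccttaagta
Ccl21a around C194T: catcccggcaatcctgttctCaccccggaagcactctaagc
Ccl21b around C194T: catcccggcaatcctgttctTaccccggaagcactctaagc
Ccl21b averaged 0.0185 reads per 10000 in members and 0.00877 in other cells. Of the other copies, Gm10591 was among the deposited genes and Gm13304 and Gm21541 were not, so Ccl21b alone does not give the level of the copies. How the authors assigned reads that fit several copies is not stated.

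Most genes that scored the other classes had a median at or near 0 in members. Ptx3, which encodes the long pentraxin of innate immunity, was detected in 11 members, or 9.40% (4.79% to 16.2%). After thinning the share was 4.85% (1.59% to 11%), against 28.7% in Ptx3+ capillary-like cells (20.9% to 37.6%). Most cells of that class therefore also lacked Ptx3 reads. Ptn-Anxa3-Stc1 cells were low in Ptx3 too, with a median ln value of 0 and a maximum of 1.07. The maximum was 1.11 in members and 2.66 in Ptx3+ capillary-like cells. Low Ptx3 therefore did not set members apart from Ptn-Anxa3-Stc1 cells. Median ln values in members were 0 for Ptx3, Stab2, Itih5, Gpx3, Anxa3, Stc1, Rbp7, Cd34, Foxp2, Bmp4, Gata2, Neo1, Fxyd2, Gdf10 and Foxc2. They were 3.26 for Stab1, 0.33 for Mrc1, 0.02 for Ptn, 0.63 for Bgn, 0.05 for Apoe, 0.01 for Comp, 0.05 for Cldn11, 0.01 for Gja4, 0.01 for Clu, 0.43 for Angpt2 and 0.71 for Itga9. In all other cells the median was 3.17 for Stab1, 0 for Mrc1, 0 for Ptn and 0.52 for Itga9, so these 4 medians were not lower in members. Those of Ptx3, Itih5, Gpx3, Anxa3, Stc1, Rbp7, Cd34, Bmp4, Gata2, Neo1, Fxyd2, Gdf10 and Foxc2 were 0 in other cells too. For these genes the median did not separate members from other cells. The scores of the Ptx3+ capillary-like and Ptn-Anxa3-Stc1 classes had medians of -0.13 and -0.14 in members and -0.22 and -0.24 in other cells, other cells including those classes themselves. Stab1 and Stab2 encode scavenger receptors of the stabilin family. Stab1 was detected in 100% of thinned members and Ptx3+ capillary-like cells, whereas Stab2 was found in 13.6% of members and 78.7% of Ptx3+ capillary-like cells. Mrc1, the macrophage mannose receptor gene, lay between, at 52.4% and 74.6%.

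The label of lymphatic endothelium held in the members. The sort used the proteins of Pecam1 and Pdpn, so these genes are no independent check. Prox1, the master transcription factor of lymphatic identity, was detected in 91.3% of thinned members and 94.6% of other cells, Flt4, the receptor for VEGF-C, in 100% and 99.6%, and Cdh5, the endothelial cadherin, in 94.2% and 93.8%. No gene used from the epithelial, glial and neuronal or cycling lists was detected in as many as 10% of members or of other cells. Of the haematopoietic list, 1 of 10 genes was measured, Fcer1g, which averaged 0.211 reads per 10000 in members and 0.204 in other cells, and Ptprc, the pan-leukocyte gene, averaged 0.000638 reads per 10000 in members and 0.0101 in other cells. Of the mural list, 1 of 8 genes was measured, Kcnj8, a potassium channel gene with a ratio of 0.84. Of the 3 measured fibroblast and tendon sheath genes, Dcn, the gene of the matrix proteoglycan decorin, was 3.40-fold lower in members, Gsn, which encodes the actin-severing protein gelsolin, was 1.74-fold lower, and Tnxb, the gene of tenascin X, was 3.71-fold higher. With only 3 genes measured, the shares of 33.3% higher and 66.7% lower, against 5.18% and 7.35% over all genes, say little of the list.

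Lyve1 was the gene outside the rule that most closely followed the score. Across all cells of the pool, Spearman's rho between Lyve1 and the Fndc1-type score was 0.62, the highest of 6184 genes, followed by Mmrn1 (0.51) and Cyp4b1 (0.46). These cells share a pool and differ in depth, so the values are descriptions. The ln value of Lyve1 had a median of 3.48 in members (0.43 to 4.58), 2.88 in Ptx3+ capillary-like cells (0 to 4.57) and 1.62 in Ptn-Anxa3-Stc1 cells (0 to 4.27), with ranges that overlapped. Mean linear levels were 32.9 reads per 10000 in members, 21.4 in Ptx3+ capillary-like cells, 9.62 in Ptn-Anxa3-Stc1 cells and 5.27 in precollecting-like cells. Every member had Lyve1 reads. The member mean ln value was above that of the other cells in 12 of 12 blocks of 96 consecutive cell numbers. Mmrn1, which encodes the lymphatic matrix protein multimerin 1, averaged 59 reads per 10000 in members and 37.2 in other cells, a ratio of 1.58. Its median ln value was 4.04 in members, close to the 3.92 of Ptx3+ capillary-like cells, and 3.28 in Ptn-Anxa3-Stc1 cells.

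Against all other cells, 5.18% of 10129 genes measured were at least 1.5-fold higher in members and 7.35% at least 1.5-fold lower. These shares depended on how levels were weighed, at 0.622% and 0.642% with 1 read per 10000 added in place of 0.1, 13.3% and 18.1% from pooled reads, and 11.7% and 15.8% with the last 6 blocks alone. A gene counted as measured when detected in at least 10% of members or of the cells compared, and rule genes were left out. The leading genes below were the 25 with the highest and the 25 with the lowest ratio among genes detected in at least 25% of the higher group and on the same side of 1 in the first 6 and the last 6 blocks of cell numbers.

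The leading higher genes included enzymes and carriers of metabolism. Cyp4b1, which encodes a cytochrome P450 monooxygenase, had a median ln value of 2.53 in members (0 to 4.44) and 0.14 in other cells (0 to 3.8). Its mean level was 15.5 reads per 10000 against 2.27, a ratio of 6.59, and it was detected in 86.4% of thinned members and 42.8% of other cells. Ucp2, which encodes an uncoupling protein of the mitochondrial inner membrane, averaged 10.9 reads per 10000 against 1.97, a ratio of 5.31. Slc4a11, an ion transporter gene, had the largest ratio of the 25 genes, 7.30 (2.01 with 1 read per 10000 added), but it was at 0 in 84 members and a single member held 21.8% of its summed level. Cmpk2, a mitochondrial nucleotide kinase gene, had a ratio of 2.73 with 57.5% of its summed level in 1 member, and a ratio of 0.93 when Reln was left out of the score.

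Genes of the cyclic GMP and mechanosensing pathways stood among the leading genes. Soluble guanylate cyclase is the receptor for nitric oxide, and its 2 main subunits are encoded by Gucy1a3 and Gucy1b3. Gucy1a3 averaged 2.01 reads per 10000 in members, 0.43 in other cells and 0.128 in Ptx3+ capillary-like cells. Gucy1b3 averaged 2.46, 0.569 and 0.174 in the same order, so both ratios against Ptx3+ capillary-like cells were above 9 (9.24 and 9.31). Against Ptn-Anxa3-Stc1 cells neither gene was among the 10 leading higher genes. Median ln values of Gucy1a3 and Gucy1b3 there were 0 and 0.02, so most of these cells had Gucy1b3 reads. Their maxima there were 2.49 and 2.33, against 1.90 and 1.66 in Ptx3+ capillary-like cells and 2.72 and 3.09 in members. After thinning, Gucy1a3 and Gucy1b3 were each detected in 64.1% of members, against 20.6% and 22.8% of other cells. Nos3, the gene of the endothelial enzyme that makes nitric oxide, was 2.61-fold lower in members than in other cells, although 1.56-fold higher than in Ptx3+ capillary-like cells. Piezo2, a stretch-activated channel gene, averaged 1.52 reads per 10000 in members and 0.472 in other cells, a ratio of 2.83, while Piezo1 had a ratio of 0.68. Ece1, which encodes the enzyme that activates endothelin, had a ratio of 1.64, and Ednrb, an endothelin receptor gene, was 2.46-fold lower. In all, 4 of 12 measured genes of the nitric oxide and mechanosensing list were at least 1.5-fold higher and 2 lower (33.3% and 16.7%, against 5.18% and 7.35% over all genes), with a median ratio of 1.06 against 0.985 over all genes measured.

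**Figure D2:**
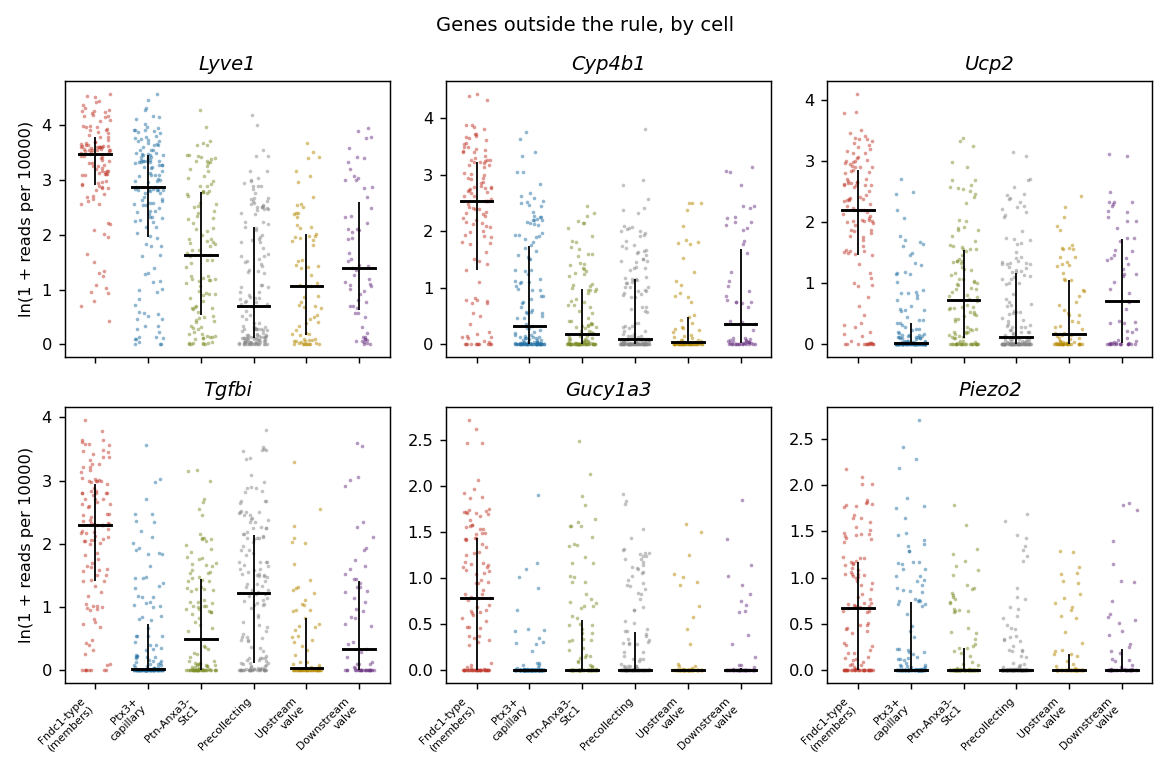
Each point is 1 cell, with the natural log of 1 plus reads per 10000 on the vertical axis and the 6 classes on the horizontal axis. Thick bars are medians and thin lines run from the lower to the upper quartile; the median of Lyve1 is 3.48 in members and 2.88 in Ptx3+ capillary-like cells, and that of Gucy1a3 is 0.78 in members and 0 in each other class.

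Matrix genes went both ways. Tgfbi, which encodes a secreted adhesion protein induced by TGF beta, had a median ln value of 2.30 in members (0 to 3.96) and 0.30 in other cells (0 to 3.79), and a ratio of 3.77. Of 30 measured matrix and basement membrane genes, 6 were at least 1.5-fold higher and 5 lower (20% and 16.7%, against 5.18% and 7.35% over all genes), with a median ratio of 0.997. The others that were higher were Col18a1 (2.03), which encodes the chain that releases endostatin, Ltbp4 (1.89), which encodes a binding protein of latent TGF beta, the type IV collagen genes Col4a1 (1.66) and Col4a2 (1.54), and the laminin gene Lamc1 (1.55). Lower were Sparc (4.20-fold), which encodes a collagen-binding protein, Adamts1 (3.11-fold), a matrix protease gene, Fn1 (2.27-fold), the fibronectin gene, Lama5 (2.26-fold) and Tnc (1.62-fold). The ln value of Sparc had a median of 0.01 in members, 1.58 in Ptx3+ capillary-like cells and 1.3 in Ptn-Anxa3-Stc1 cells.

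The other leading higher genes had varied functions. Igfbp3, an insulin-like growth factor binding protein gene, averaged 1.29 reads per 10000 in members and 0.164 in other cells. Cd2, best known as an adhesion receptor gene of lymphocytes, was detected in 30.1% of thinned members and 2.37% of other cells, with 75 members at 0. Stmn2, a microtubule regulator gene, had a ratio of 4.32, Antxr2, an anthrax toxin receptor gene, 3.58, Enpp3, an ectonucleotidase gene, 2.89, and Syne1, which encodes a nuclear envelope linker, 2.96. Fam102b, Pcp4l1, Arhgap10, Slc45a4, Enkur, Smox, Plxdc2, Brinp1 and Susd2 had ratios between 2.68 and 3.66. Of the 25 genes, 13 had a higher mean ln value in members in 12 of 12 blocks of cell numbers, and Cmpk2 in 7, with the caveat that a leading gene had to lie on 1 side in both sets of 6 blocks.

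Of the 25 leading lower genes, 21 had a lower mean level in members than in each of the 5 other classes. Gdf15, a stress-induced cytokine gene, averaged 0.329 reads per 10000 in members against 24 for the upstream-valve-like class and 1.48 for the Ptx3+ capillary-like class, and was 12.2-fold lower in members than in all other cells. Gm525 was 6.5-fold lower against all other cells and 19.6-fold lower against Ptx3+ capillary-like cells. Selp, the gene of P-selectin, was 5.10-fold lower against all other cells and 12.5-fold lower against Ptx3+ capillary-like cells. Among them were Plvap, which encodes the diaphragm protein of fenestrae and transendothelial channels (3.99-fold), Procr, the protein C receptor gene (3.94-fold), Sbno2 (4.16-fold), Tmem176a (3.84-fold) and Tmem176b (3.41-fold). Plvap was at 0 in 80 members and was detected in 14.6% of thinned members and 58.1% of other cells. The other genes were Parm1, Cpne7, Spp1, Gm16486, Slc41a1, Gem, Odc1, Sema7a, Itga3, Batf, Nr4a2, Slc29a4, Adm, Gadd45g and Cmah, between 3.18-fold and 5.87-fold lower. Spp1 was lower in mean level but not in detection, with reads in 29.9% of members and 27.1% of other cells without thinning. Its maximum ln value was 1.79 in members, 0.85 in Ptx3+ capillary-like cells, 1.29 in Ptn-Anxa3-Stc1 cells and 4.60 over all other cells. Gm16486 was higher in members when the cells of the last 6 blocks were scored alone (ratio 2.21), and also when Fbln7 (1.04) or Ccl21a (1.06) was left out of the score.

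**Figure D3:**
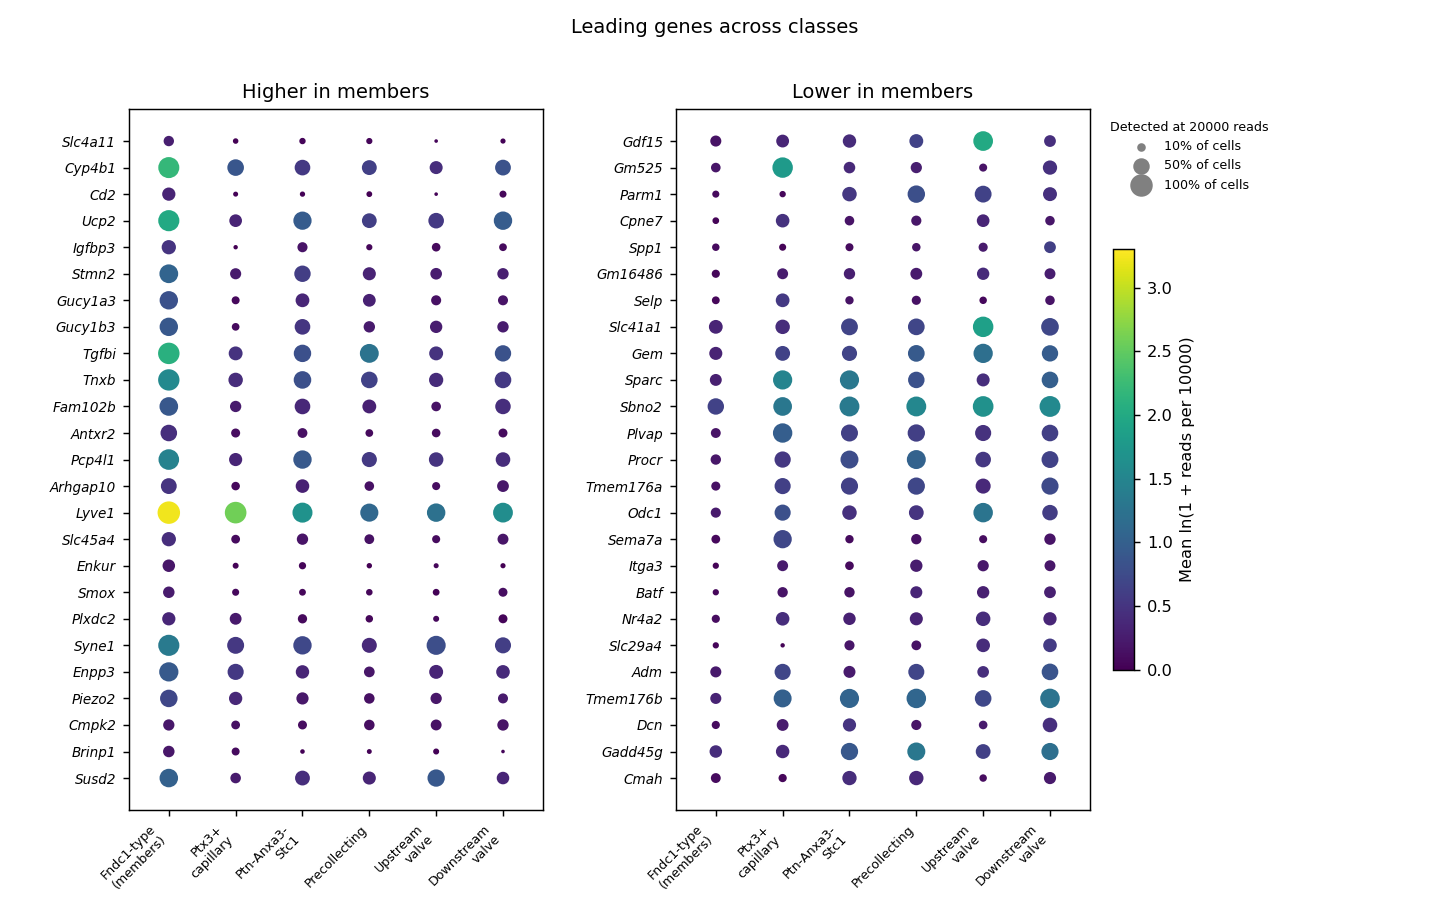
Rows are the 25 leading higher genes (left) and 25 leading lower genes (right) of members against all other cells, and columns are the 6 classes. Colour gives the mean natural log of 1 plus reads per 10000, and dot area gives the percent of cells with reads after thinning to 20000 reads; Cyp4b1, Ucp2, Tgfbi and Lyve1 have their highest mean in the member column, whereas Gdf15 is highest in upstream-valve-like cells and Gm525 in Ptx3+ capillary-like cells.

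Against Ptx3+ capillary-like cells, 9.25% of 10212 genes measured were at least 1.5-fold higher in members and 13.3% lower. Igfbp3 (12.7-fold), Ucp2 (11.8-fold), Slc4a11 (10.7-fold), Ackr3 (10.54-fold), Crip1 (10.1-fold), both guanylate cyclase genes, Igfbp5 (8.93-fold), Htr2b (8.32-fold) and Pdlim3 (7.37-fold) had the largest ratios. Their order depended on the 0.1 reads per 10000 added, and with 1 added the ratio was 2.27 for Igfbp3, 6.50 for Ucp2, 2.12 for Slc4a11 and 6.06 for Ackr3. Ackr3, which encodes a scavenging receptor for CXCL12 and adrenomedullin, had a median ln value of 2.10 in members (0 to 3.78), 0.04 in Ptx3+ capillary-like cells (0 to 3.85) and 2.29 in Ptn-Anxa3-Stc1 cells (0 to 4.26). Mean levels of Ackr3, Crip1, Htr2b and Pdlim3 in Ptn-Anxa3-Stc1 cells were 12.8, 7.13, 1.67 and 1.67 reads per 10000, within 1.5-fold of those in members. Igfbp5 averaged 24.2 reads per 10000 there, 8.78 in members and 0.894 in Ptx3+ capillary-like cells. The lowest ratios belonged to Gm525, Selp, Exoc3l2, Cpne7, Sema7a, Sparc, Bmp7, Plvap, Gm16486 and Adamts15, from 6.04-fold to 19.6-fold lower. Aqp1, the water channel gene, averaged 24.6 reads per 10000 in members and 76.9 in Ptx3+ capillary-like cells.

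Against Ptn-Anxa3-Stc1 cells, 7.96% of 10205 genes were at least 1.5-fold higher in members and 9.68% lower. Cyp4b1 had the largest ratio (10.98), followed by Slc4a11 (7.71), Cd2 (6.10), Gmfg (4.85), Tgfbi (4.58), 8430408G22Rik (4.13), Brinp1 (4.11), Fxyd1 (3.75), Plxdc2 (3.64) and Piezo2 (3.45). Gmfg, an actin regulator gene, averaged 2.30 reads per 10000 in members, 2.58 in Ptx3+ capillary-like cells and 0.394 in Ptn-Anxa3-Stc1 cells. Lowest were Dcn (7.85-fold), Cmah (6.58-fold), Pthlh (6.39-fold), Parm1 (6.33-fold), Fabp4 (5.63-fold), Gm16486 (5.14-fold), Sparc (4.93-fold), Bcam (4.41-fold), Capn5 (4.25-fold) and Prdm16 (4.24-fold). A single Ptn-Anxa3-Stc1 cell held 40.8% of the summed level of Pthlh outside the members, and so a larger share within that class. For Dcn and Cmah the highest cell outside the members was also of that class. It held 15.7% and 15.2% of their summed levels outside the members. Of the 10 leading genes in each of these comparisons, 5 of the higher and 7 of the lower against Ptx3+ capillary-like cells were also among the 25 against all other cells, as were 7 of the higher and 5 of the lower against Ptn-Anxa3-Stc1 cells. All these comparisons share the same members.

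Chemokine and immune traffic genes went both ways, with 4 of 15 measured genes at least 1.5-fold higher than in all other cells and 4 lower (26.7% each, against 5.18% and 7.35% over all genes). Ackr2, which encodes a receptor that clears inflammatory chemokines, had a median ln value of 1.28 in members (0 to 3.88) and 0.30 in other cells (0 to 3.36), and a ratio of 2.45. Il33, the alarmin gene and an ageing gene of the study, averaged 2.49 reads per 10000 in members and 1.27 in other cells, a ratio of 1.90. Ackr3 (1.96) and Cxcl12 (1.72) were the others that were higher. Ackr4, which encodes the receptor that scavenges CCL19 and CCL21, averaged 0.0192 reads per 10000 in members and 0.398 in other cells. Ccl2, Ccl7 and Cxcl1, inflammatory chemokine genes, were 2.91-fold, 2.11-fold and 1.58-fold lower.

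In the reelin pathway, 1 of 8 measured genes was higher and 1 lower, and with shares of 5.18% and 7.35% over all genes these single genes say nothing of the list. Vldlr, a reelin receptor gene, averaged 0.315 reads per 10000 in members and 0.171 in other cells (ratio 1.53), and Itga3, which encodes an integrin chain that binds reelin, was 3.79-fold lower. Lrp8, the other classical receptor gene, averaged 0.000223 reads per 10000 in members, and Dab1, the adaptor gene of the pathway, had no reads in any member. An approximate upper limit for the share of cells with a Dab1 read, 3 divided by the number of members, was 2.56%. Unlike the intervals given elsewhere, this limit is not exact.

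Among lists with at least 10 measured genes, MHC class I and immediate early genes had the highest shares of lower genes. These were 42.9% and 35%, against 7.35% over all genes, where 5.18% were higher and the median ratio was 0.985. Of 14 measured MHC class I genes, 6 were at least 1.5-fold lower and 0 higher, with a median ratio of 0.739. H2-Q6 (2.38-fold), H2-Q7 (2.09-fold), H2-Q4 (1.92-fold), H2-K1 (1.55-fold), H2-T22 (1.55-fold) and Psmb8 (1.51-fold) were lower. The H2-Q genes are near-identical in sequence, so their separate values are uncertain, as is their weight as separate genes in the 42.9%. H2-K1, a classical presenting molecule gene, averaged 21.2 reads per 10000 in members and 32.9 in other cells, and the member mean ln value was lower in 11 of 12 blocks. Of 20 immediate early and dissociation genes, 7 were lower and 0 higher, with a median ratio of 0.749. These were Nr4a1 (2.97-fold), Socs3 (2.37-fold), Dnajb1 (2.09-fold), Fosl2 (1.86-fold), Hspb1 (1.6-fold), Ier3 (1.54-fold) and Fosb (1.52-fold). Tissue digestion is known to induce such genes, and the part of this in the difference was not tested.

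**Figure D4:**
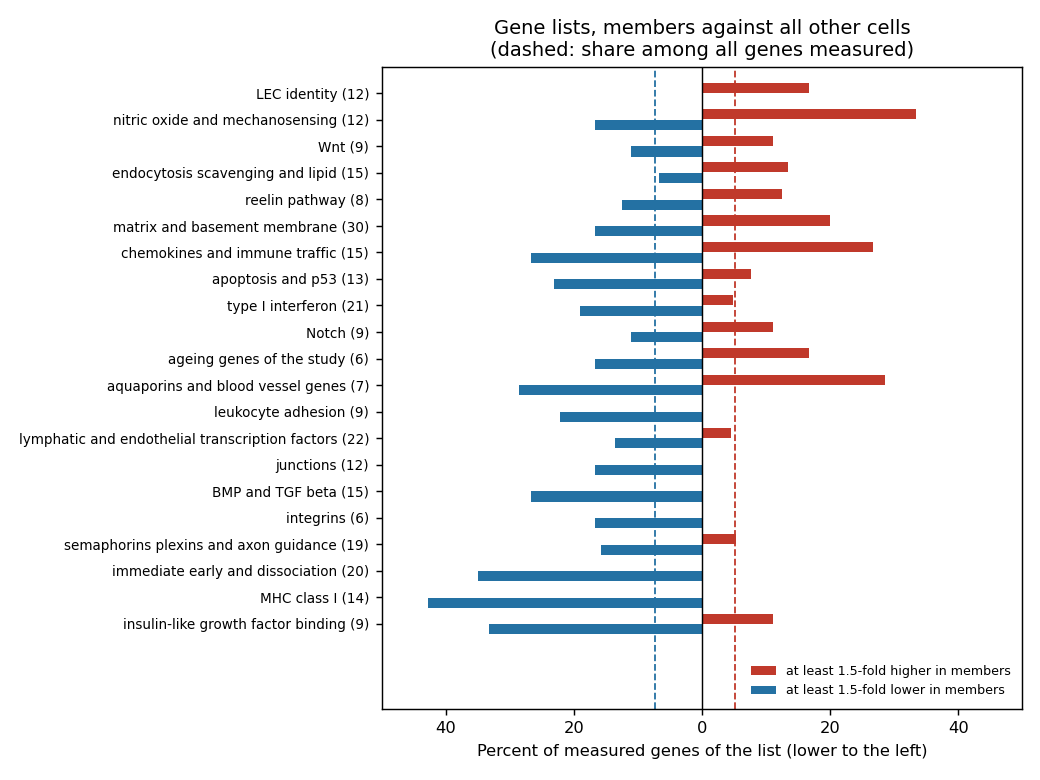
Bars give the percent of measured genes of each list (number measured in brackets, lists with at least 6) that were at least 1.5-fold higher (red, right) or lower (blue, left) in members than in all other cells, ordered by median ratio. Dashed lines mark the shares over all genes measured, 5.18% higher and 7.35% lower; MHC class I has 42.9% lower and 0% higher.

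Members lay near each other by genes the rule did not use. With the 31 rule genes left out, 63.4% of the 15 nearest cells of a member were members, against a class share of 17.8%, and 11.2% were Ptn-Anxa3-Stc1, 9.12% precollecting-like and 6.95% Ptx3+ capillary-like cells. The corresponding share of own-class neighbours was 60.7% in Ptx3+ capillary-like cells and 38.3% in Ptn-Anxa3-Stc1 cells. The share varied with the margin of the score. It had a median of 86.7% in the 86 members that led by at least 0.25 and 26.7% in the 31 others, and was above 50% in 78 members.

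Members differed in which of the rule's 5 genes raised their score. As a split chosen after the values were seen, 87 members had a mean z above 0 for both Fndc1-Tppp3-Fbln7 and Reln-Ccl21a, 18 for the first set alone and 12 for the second alone. The 12 members with Reln and Ccl21a alone had mean ln values of 0.20 for Cyp4b1, 0.55 for Ucp2, 0.80 for Tgfbi and 2.33 for Lyve1, where the other cells had 0.67, 0.64, 0.81 and 1.68. The corresponding values were 2.48, 2.24, 2.34 and 3.42 in the 87 members and 2.15, 1.77, 1.74 and 2.88 in the 18. Members made up 21.7% of the nearest cells of the 12, 71.8% for the 87 and 50.4% for the 18.

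The genes that varied most among members beyond their mean level were Fos, Atf3, Aqp1, Cyr61, Zfp36, Junb, Tppp3, Jun, Cyp4b1 and Socs3. Fos, the immediate early transcription factor gene, had a median ln value of 3.86 with quartiles of 1.64 and 4.86. Its rho across members was 0.73 with Atf3, 0.82 with Junb and 0.76 with Jun, but 0.03 with Cyp4b1 and 0.02 with Aqp1. Cyp4b1 followed the Fndc1-type score within members (rho 0.44), whereas Fos did not (0.04).

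The share of members varied along the cell numbers, with intervals that overlapped. It was 20.6% (16.8% to 24.8%) in the first 6 blocks and 13% (8.99% to 17.9%) in the last 6, or 19.9% and 15.1% when each set of blocks was scored alone, and in single blocks it ran from 7.94% to 27.4%. Plates had 96 wells, but the labels do not tie a cell number to a plate. Median reads per block ran from 52583 to 2450279.5, and the part of depth or plate in the share was not tested. The ratio of Cyp4b1 was 6.74 in the first 6 blocks and 6.53 in the last 6, and that of Lyve1 was 3.24 and 2.85. Some leading genes differed more, such as Slc4a11 (7.58 and 3.57), Piezo2 (3.51 and 1.71) and Cmpk2 (1.42 and 5.95). All leading genes had to lie on the same side of 1 in both sets. With the last 6 blocks scored alone, 31.1% of the ratios of named genes moved by over 1.5 times. This leaves out a further 8 ratios that had been past 1.5-fold and changed side of 1.

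**Figure D5:**
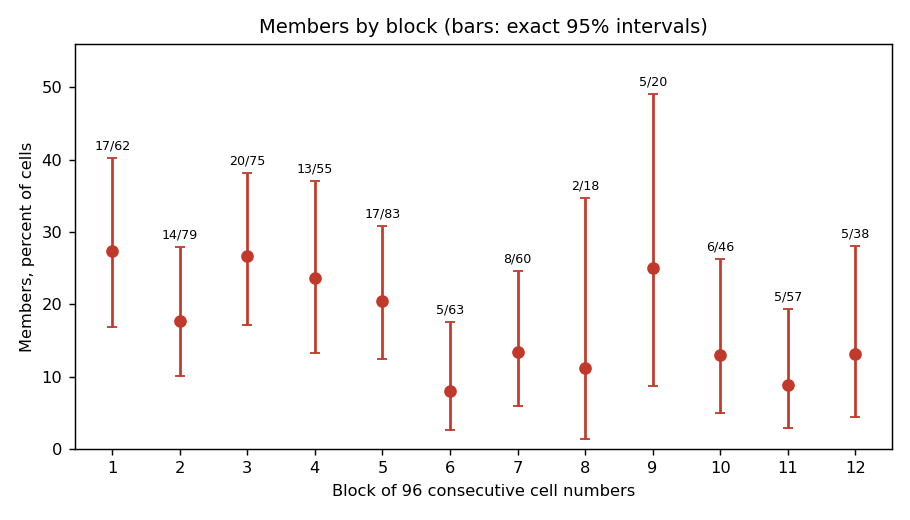
Points give the percent of cells in each block of 96 consecutive cell numbers that were members, with exact 95% binomial intervals as bars and the counts of members and cells above them. The share runs from 7.94% in block 6 to 27.4% in block 1, with wide intervals that overlap between all blocks.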

How the data were processed

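Sorted LECs (CD31+ PDPN+) of the aged NPLP were sequenced with Smart-seq3. Reads had been aligned to mm10 (STAR) and assigned to genes (featureCounts), and the authors filtered cells and deposited 1 table of 23168 genes by 656 cells; the labels describe 1152 cells, and 496 were not analysed here. The deposited values are the natural log of 1 plus reads per 10000, although the methods describe log2: undoing the natural log and subtracting 1 gave totals of 10000 for all cells. Dividing by the smallest value above 0 in a cell gave whole reads for 100% of values above 0, and these reads were used for depth and thinning (20000 reads, without replacement, seed 1).

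The members (117 of 656 cells; 103 of 568 after thinning) were compared with 139 Ptx3+ capillary-like, 114 Ptn-Anxa3-Stc1, 150 precollecting-like, 73 upstream-valve-like and 63 downstream-valve-like cells. The members, gene lists and comparisons were chosen with earlier results of these data known. Genes named are the 31 rule genes, the leading genes as defined in the report (10 in each direction against the Ptx3+ capillary-like and Ptn-Anxa3-Stc1 classes), the 10 most variable genes among members, and 31 gene lists with the genes furthest from a ratio of 1. Of 444 listed genes, 424 were in the table and the others were not used here. Nearest cells were taken on 15 principal components of 2000 variable genes (scanpy 1.11.5). Intervals are Clopper-Pearson (scipy 1.17.1). Gene positions and transcripts are from GENCODE M21 (GRCm38). Doublets were not called, wells having received single cells; cells with both Xist and Y-linked reads were left out as an alternative. No p-value was computed. Scripts were tested on simulated data. Alternatives covered thinning, the score margin, detected genes, doublets, ranks, each score gene, cell numbers, the pseudocount, the detection filter and the weighting of cells.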

Additional observations from a re-analysis of the deposited data

How the results depend on the processing

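With 1 pool of cells, no test or replicate could be left out. No paired analysis was possible because all cells belong to 1 group with no replicate numbers that pair samples. The share of members was 13.1% when a lead of 0.25 was required. The share of members with Ptx3 was 3.96% when cells were also scored on thinned reads and 0.855% at ln values above 1. With 30 neighbours, 59.9% were members. The percent of genes past 1.5-fold is given here in the order higher and lower against all other cells, Ptx3+ capillary-like cells and Ptn-Anxa3-Stc1 cells. It was 11.7%, 15.8%, 16.4%, 20.2%, 17.4% and 18.4% with the last 6 blocks alone, 0.622%, 0.642%, 1.25%, 1.24%, 0.666% and 0.784% with 1 read per 10000 added, and 13.3%, 18.1%, 16.9%, 22.2%, 21% and 19% from pooled reads, in which deep cells weigh more. With detection in 25% of cells it was 4.81%, 6.47%, 9.0%, 12.5%, 7.24% and 9.08%, of fewer genes, and with no filter on detection 3.01%, 4.20%, 5.54%, 8.29%, 4.92% and 6.11%, of more genes. The larger added read damps ratios of low genes by construction, and otherwise the cause was not tested. Of 2368 ratios of named genes over 16 settings, 12.7% moved by over 1.5 times, most often with 1 read per 10000 added (63.5%) and from pooled reads (37.2%). A further 17 ratios, not counted in these shares, had been past 1.5-fold and changed side of 1. Against all other cells these were Notch4 with scores on thinned reads (0.95) and with the lead of 0.25 (0.92), Cmpk2 without Reln in the score (0.93), Id2 without Ccl21a (1.10), and, with the last 6 blocks alone, Dkk3 (0.88), Hhex (1.07), Meis2 (1.10), Cd74 (1.43) and Bcl2 (1.03). Gm16486 changed side against all other cells without Fbln7 (1.04), without Ccl21a (1.06) and in the last 6 blocks (2.21), against Ptx3+ capillary-like cells without Tppp3 (1.04), Fbln7 (1.13) or Ccl21a (1.28) and in the last 6 blocks (2.33), and against Ptn-Anxa3-Stc1 cells in the last 6 blocks (2.15).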

Other observations

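Other gene groups are given here as values. Of 21 measured type I interferon genes, 1 was at least 1.5-fold higher in members than in all other cells and 4 lower (median ratio 0.965), against shares of 5.18% and 7.35% over all genes. Among the 6 ageing genes of the study, Mcl1, a survival gene of the Bcl2 family, was 1.51-fold lower and Il33 higher, while Irf7, Ifitm2, Ifitm3 and Zbp1 had ratios of 0.94, 1.04, 0.96 and 0.76. Of 13 apoptosis and p53 genes, Pmaip1 was higher (1.61), and Bcl2l11 (2.40-fold), Cdkn1a (2.04-fold) and Bcl2 (1.83-fold, but a ratio of 1.03 with the last 6 blocks alone) were lower. Of 9 leukocyte adhesion genes, Selp and Icam1 (2.0-fold) were lower and 0 higher. Of 15 BMP and TGF beta genes, Gdf15, Id3 (2.02-fold), Id2 (1.67-fold, but a ratio of 1.10 without Ccl21a in the score) and Fstl1 (1.59-fold) were lower and 0 higher. The tight junction gene Cldn5 had a ratio of 0.92.

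Although the methods state that mice of both sexes were used, 93.2% of members had reads of Xist without a Y-linked gene, 1 member had both and 7 had neither. Of the other cells, 92% had reads of Xist without a Y-linked gene. No cell, member or other, had Y-linked reads without Xist.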
